A study of Mus musculus with 2 samples.

Results

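The let-7 genes described here are the 6 members of the family whose mature microRNA comes from 1 place in the genome: Mirlet7b, Mirlet7d, Mirlet7e, Mirlet7g, Mirlet7i and Mir98. They were chosen by gene symbol among the 2202 microRNA genes of the count files, through the Ensembl identifiers that the GENCODE M21 annotation pairs with these symbols, and 6 of 6 were found. Small RNA was sequenced from whole heart of 2-month-old male mice of the strain B6CASTF1/J, an F1 hybrid of C57BL/6J and CAST/EiJ. The 2 libraries form 1 group of 2 replicates, and the study compared no conditions. The sample descriptions number them as different males, but both carry the same donor identifier, so the spread between them may be technical. The p-values below set these 2 libraries against counting noise and measure no spread between animals. Reads of both parental genomes were placed on mm10, which is the C57BL/6J genome. Levels are read counts on the strand of a gene, given as CPM, that is, per 1000000 reads counted for all microRNA genes of a library. A gene's count covers the whole hairpin, so its 5′ and 3′ arms were not separated.

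The let-7 microRNAs take their name from a gene of the nematode Caenorhabditis elegans that times the passage from larva to adult. In mammals they mark differentiated cells, and they repress messages of growth and of the embryonic programme, among them Hmga2, Ras family genes and Lin28a. A microRNA pairs with its targets mainly through its seed, near the 5′ end, and the let-7 genes share 1 seed. The precursor is a hairpin that Drosha and Dicer cut, and the RNA-binding protein LIN28 can block this for let-7 precursors. Mir98 belongs to the family by sequence despite its name.

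The mature 5′ arm sequences below, from RefSeq on GRCm38.p6 (the assembly also called mm10), show how close the 6 microRNAs are to one another and to the let-7 forms made from several loci. Capitals mark the seed, bases 2 to 8.
let-7i-5p: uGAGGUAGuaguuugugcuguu
let-7b-5p: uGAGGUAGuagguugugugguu
let-7g-5p: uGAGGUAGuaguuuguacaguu
let-7d-5p: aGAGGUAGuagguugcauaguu
let-7e-5p: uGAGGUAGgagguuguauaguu
miR-98-5p: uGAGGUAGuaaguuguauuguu
let-7a-5p: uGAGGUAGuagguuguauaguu
let-7c-5p: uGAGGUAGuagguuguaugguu
let-7f-5p: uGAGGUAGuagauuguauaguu

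The first 6 are the single-locus forms and the last 3 the multi-copy forms, each made from 2 genes. All 6 single-locus microRNAs are 22 bases long, as are their 3′ arms, so their counts need no correction for length. They are identical at 14 positions, and 7 of the other 8 positions lie at base 9 or beyond. Over the 15 pairs among them, 2 to 6 bases differ, with a median of 4. With positions counted from 1 at the 5′ end and let-7a's base given first, let-7e carries the single change U9G. Against the same sequence let-7b carries A17G and A19G, let-7g carries G12U and U18C, let-7d carries U1A and U16C, and miR-98 carries G11A and A19U. The farthest from let-7a is let-7i, with G12U, A17G, U18C and A19U. The mature let-7b is also 1 base away from let-7c, by G17A with the base of let-7b first.

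These differences bear on which reads were counted, because the files list reads mapped to several places in a row of their own, apart from the gene rows. How the aligner assigned such reads is not given in the sources used here, and the row was taken to mean that they enter no gene's count. Searched over all 2202 hairpins on both strands, each of the 6 whole mature sequences occurs at 1 place, whereas let-7a, let-7c and let-7f each occur at 2. The genome outside these hairpins was not searched. Read from the 5′ end, let-7d is found at 1 place from 10 bases onward and miR-98 from 11 bases. For let-7b, let-7e, let-7g and let-7i this takes 17 bases. One base shorter, let-7g and let-7i cannot be told from each other, and let-7b cannot be told from let-7a and let-7c. At that length let-7e cannot be told from a stretch of the hairpin of Mir7k, another gene with the let-7 seed.

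Mirlet7i (ENSMUSG00000065406.3) had the highest mean level of the 6 genes, at 96782 CPM in replicate 1 and 70926 CPM in replicate 2. By counted reads it ranked second of all microRNA genes in both libraries. Its mean was 83854 CPM ± 18283 (SD, n = 2). Reads mapped to several places, 48.0% and 46.4% of all reads, were taken to enter no gene row. Ranks here are therefore those of counted reads, and microRNAs made at several loci may be ranked too low. Mirlet7b (ENSMUSG00000065564.1) was at 68432 and 70128 CPM, a mean of 69280 CPM ± 1200 (SD, n = 2). Mirlet7g (ENSMUSG00000065440.1) was at 69418 and 68656 CPM, a mean of 69037 CPM ± 539 (SD, n = 2). Mirlet7i therefore stood well above both in replicate 1 and level with them in replicate 2, while Mirlet7b and Mirlet7g were nearly equal in the libraries.

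Mirlet7d (ENSMUSG00000065453.1) was at 28904 CPM in replicate 1 and 54650 CPM in replicate 2, a mean of 41777 CPM ± 18205 (SD, n = 2). It had the widest relative spread of the 6, with a coefficient of variation of 43.6%, against 21.8% for Mirlet7i and 0.780% for Mirlet7g. Mirlet7e (ENSMUSG00000105758.1) was at 7658 and 7458 CPM, a mean of 7558 CPM ± 141 (SD, n = 2). Mir98 (ENSMUSG00000065536.2) was the lowest, at 2174 and 1826 CPM, a mean of 2000.0 CPM ± 246 (SD, n = 2), and still ranked 42 and 49 of the 2202 genes, of which 1480 had no count in either library.

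**Figure D1:**
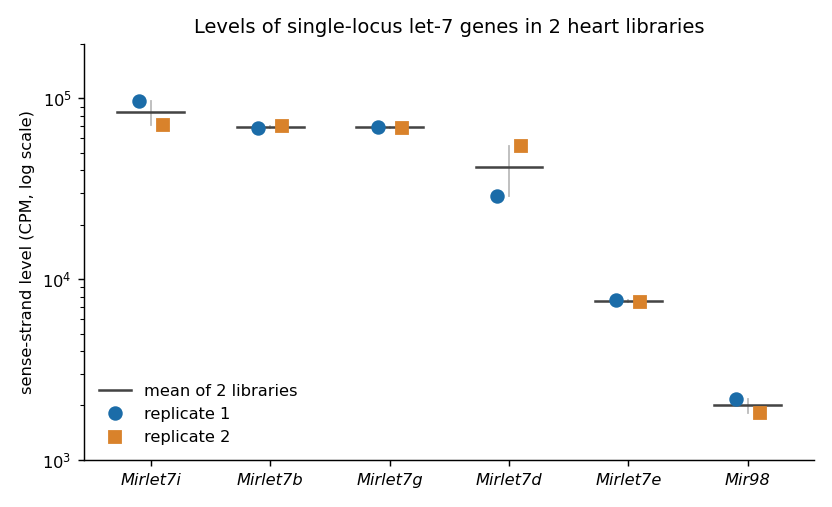
Level in CPM on a log axis of each single-locus let-7 gene in replicate 1 (circles) and replicate 2 (squares) of mouse heart, with a dark bar at the mean of the 2 libraries and a thin grey line between their values. The means run from 83854 CPM for Mirlet7i to 2000.0 CPM for Mir98, and Mirlet7d and Mirlet7i show the widest gaps between libraries.

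By mean level the order was Mirlet7i, Mirlet7b, Mirlet7g, Mirlet7d, Mirlet7e and Mir98. Both libraries gave this order except that Mirlet7g was above Mirlet7b in replicate 1. For 4 of the 5 neighbouring pairs the values of the 2 libraries did not overlap, and for Mirlet7b and Mirlet7g they did. The first of these 4 pairs was narrow. Mirlet7i exceeded Mirlet7b 1.41-fold in replicate 1 and 1.01-fold in replicate 2, and the difference of their means, 14574 CPM, was smaller than the SD of Mirlet7i. Mirlet7g exceeded Mirlet7d 2.40-fold and 1.26-fold, Mirlet7d exceeded Mirlet7e 3.77-fold and 7.33-fold, and Mirlet7e exceeded Mir98 3.52-fold and 4.08-fold. With 2 libraries an exact sign-flip permutation test cannot give a two-sided p below 0.5, so these ratios were not tested. No correction was made for sequence-dependent recovery in library preparation, so the order is that of counted reads.

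The 6 genes held 27.34% of all microRNA gene counts in replicate 1 and 27.36% in replicate 2, a mean of 27.4% ± 0.0196 (SD, n = 2). Exact Clopper-Pearson 95% intervals ran from 27.29% to 27.38% in replicate 1 and from 27.32% to 27.41% in replicate 2. The top 3, Mirlet7i, Mirlet7b and Mirlet7g, made up 85.8% of the counts of the 6 genes in replicate 1 and 76.6% in replicate 2. Depth was 3650782 and 3810675 sense-strand gene counts, so these intervals are narrow, and they cover counting error only. Reads mapped to several places are outside these totals, so the shares are of counted reads and not of all microRNA reads. The labelled tissue was checked against its markers. The heart muscle microRNA genes Mir208a, Mir208b and Mir499 were all detected and together held 0.395% and 0.689% of the counts. Other muscle microRNA genes were not on this list. Mir208a was at 1329 and 4265 CPM and Mir208b at 24.7 and 118 CPM, whereas Mir499 was at 2601 and 2507 CPM, so the list did not move as one. The liver gene Mir122 held 0.0142% and 0.00979%. The 6 neuronal genes held 0.00279% and 5.25e-05%, and Mir9-3 alone had 101 counts and 1 count, with at most 1 count in either library for each of the others. The 4 genes Mir124a-1, Mir124a-2, Mir124a-3 and Mir9-2 had 0 counts in both libraries. With 3 counts as the limit that a count of 0 allows, this is 0.822 CPM at the first library's depth and 0.787 CPM at the second's. The 4 epithelial genes held 0.0199% and 0.0177%. Among cell types of the heart, the endothelial gene Mir126a held 5.22% and 7.02%, the smooth muscle genes Mir143 and Mir145a 5.46% and 5.33%, and the fibroblast genes Mir21a and Mir214 0.502% and 0.418%. Within the fibroblast sum, Mir21a was at 4504 and 1908 CPM and Mir214 at 519 and 2269 CPM, in opposite directions. Blood cell genes held 0.234% and 0.169% (Mir451a and Mir144, erythroid) and 0.788% and 0.676% (Mir150, Mir155 and Mir223, leukocyte). Their part in the let-7 levels was not tested. The sums cover only the listed genes and counted reads, so they do not rank cell types by amount. In whole heart, fewer cells of a type and less RNA per cell cannot be told apart.

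Each of the 6 genes lies inside another annotated gene on its own strand, and they divide evenly between exons of noncoding genes and introns of protein-coding genes. Mirlet7i, on chromosome 10 from 122985640 to 122985724 of mm10 on the minus strand, overlaps an exon of 1 of the 2 transcripts of D630033A02Rik, a transcribed processed pseudogene. Mirlet7b, on chromosome 15 from 85707319 to 85707403 on the plus strand, overlaps an exon of 1 of the 2 transcripts of Lncppara, a noncoding gene. Mirlet7d, on chromosome 13 from 48536012 to 48536114 on the minus strand, overlaps an exon of the long noncoding RNA gene 6720427I07Rik.

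The other 3 are intronic. Mirlet7g, on chromosome 9 from 106178840 to 106178927 on the plus strand, lies in an intron of Wdr82, a gene of a histone methyltransferase complex subunit, and 5 of the 6 annotated transcripts span it. Mirlet7e, on chromosome 17 from 17830352 to 17830444 on the plus strand, lies in an intron of Spaca6, a gene needed for sperm and egg to fuse, and 2 of its 16 transcripts span the hairpin. Mir98, on the X chromosome from 151913214 to 151913321 on the plus strand, lies in an intron of Huwe1, a ubiquitin ligase gene, where 2 of 23 transcripts span it. The 3 exonic genes had mean levels of 41777 to 83854 CPM, and the 3 intronic genes had 2000.0 to 69037 CPM, so the groups overlapped through Mirlet7g. Host transcripts have no counts in these microRNA files, and host and microRNA levels were not compared here.

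**Figure D2:**
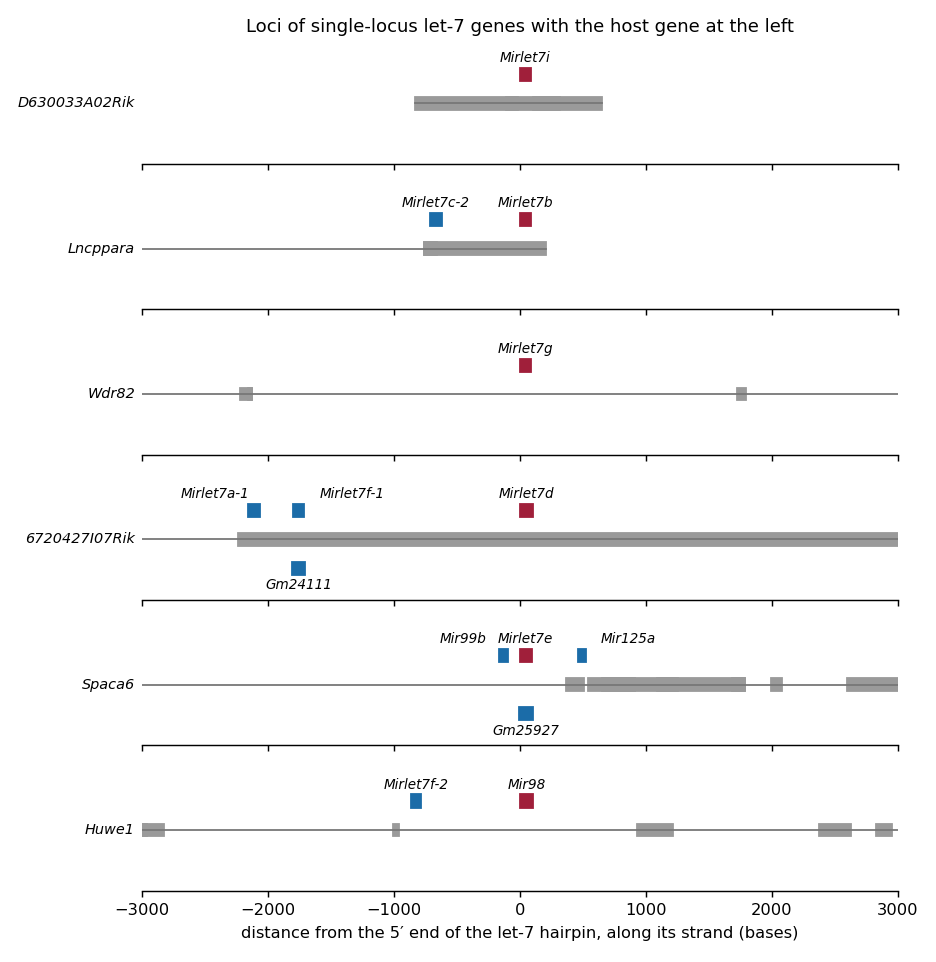
Annotated loci of the 6 genes, each drawn along the strand of the let-7 gene, with distance in bases from the 5′ end of its hairpin on the horizontal axis. Red boxes are the 6 genes, blue boxes other microRNA genes (below the line where they lie on the opposite strand), grey lines the host gene named at the left and grey boxes the exons of any of its transcripts. Mirlet7i and Mirlet7g have no microRNA gene nearby, and Gm25927 covers Mirlet7e on the opposite strand.

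Within 10 kb on the same strand, 4 of the 6 genes have other microRNA genes, 6 in all. The cluster of Mirlet7e is the one whose partners are not let-7 genes. Mir99b starts the cluster, 94 bases before Mirlet7e, and Mir125a, a relative of the nematode developmental timer lin-4, follows it by 367 bases. Mirlet7e had 27956 and 28419 counts in replicates 1 and 2, against 32412 and 19692 for Mir99b and 25926 and 57986 for Mir125a. In CPM, Mirlet7e was 0.863 times Mir99b in replicate 1 and 1.44 times Mir99b in replicate 2. The log2 ratio averaged 0.16 ± 0.53 (SD, n = 2). Against Mir125a it was 1.08 times and 0.490 times, and the log2 ratio averaged -0.46 ± 0.80 (SD, n = 2). The order within the cluster thus turned for both partners between the libraries, while Mirlet7e itself had a coefficient of variation of 1.87%.

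The remaining clusters hold multi-copy let-7 genes, whose mature 5′ sequence occurs at 2 places. If such reads enter no gene row, the counts of these genes leave out an unknown number of reads. Mirlet7b was at 36.0 times and 44.6 times the level of Mirlet7c-2, which lies 621 bases before it. Mirlet7d was at 31.5 times and 70.8 times Mirlet7a-1, and at 88.4 times and 218 times Mirlet7f-1, both upstream in the same noncoding exon. Between the libraries the members of that cluster moved apart. Mirlet7d was 1.89 times as high in replicate 2 as in replicate 1, whereas Mirlet7a-1 was 0.842 times and Mirlet7f-1 0.767 times as high. On the X chromosome Mir98 was the lower gene, at 0.294 times and 0.255 times the level of Mirlet7f-2, 785 bases upstream, although the mature sequence of Mirlet7f-2 is also that of Mirlet7f-1.

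**Figure D3:**
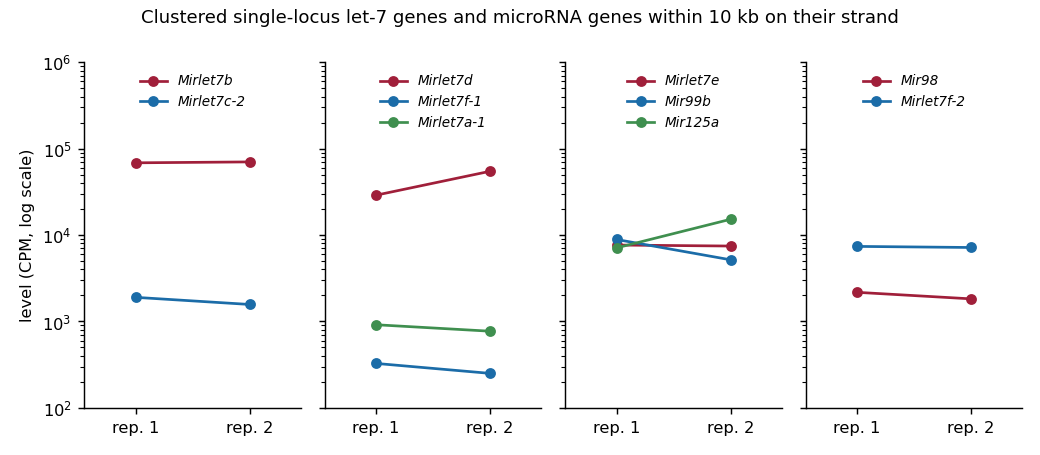
Level in CPM on a log axis in replicates 1 and 2 of each clustered single-locus gene (red) and of the microRNA genes within 10 kb on its strand (blue and green). Mir99b and Mir125a cross Mirlet7e in opposite directions, and Mirlet7d is higher in replicate 2 while Mirlet7a-1 and Mirlet7f-1 are lower.

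Each gene's counts in the libraries were set against each other by a two-sided exact binomial test, scaled by TMM library sizes and adjusted by Benjamini-Hochberg over 320 genes past the low-count filter. It compares these 2 libraries with counting noise and not conditions. Of all tested genes, 64.4% differed at an adjusted p under 0.05, and among the 59 genes at 1000 CPM or more in both libraries, a limit chosen after the values were seen, 93.2% did. All 6 let-7 genes were called, 2 higher and 4 lower in replicate 2, which at their depth is near that background. That split was 1 higher and 4 lower with DESeq2 size factors, and 3 and 2 with all genes with a count. It was 2 and 2 both without strand and with a minimum of 10 CPM. Without strand only 5 of the 6 were tested, as Mirlet7e had 0 counts there. Over all genes, higher and lower calls numbered 93 and 112 of 320 with DESeq2 size factors, and 118 and 95 of 722 with all genes with a count. They numbered 91 and 90 of 297 without strand, and 89 and 87 of 238 with a minimum of 10 CPM. In the main test, 30.6% of all genes tested were higher and 33.8% lower.

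The sizes of the differences separated the 6 genes further. Mirlet7d was higher in replicate 2 by a log2 ratio of 0.91, and Mirlet7i was lower by a log2 ratio of -0.46. The adjusted p of the binomial test was 0 at machine precision for both. Mir98 was lower with -0.26 (adjusted p = 2.35e-28). Mirlet7e, Mirlet7g and Mirlet7b had ratios of only -0.05, -0.03 and 0.02, with adjusted p of 5.32e-05, 1.56e-12 and 9.55e-08 from their many counts. Each of these 3 calls is lost under at least 1 other scaling or filter, and the signs of Mirlet7e and Mirlet7g turn to 0.03 and 0.05 when all genes with a count enter the fit. The median absolute log2 ratio was 0.16 over the 6 genes, 0.30 over the 59 genes at 1000 CPM or more, as all 6 are, and 0.44 over all 320. The biological coefficient of variation, the spread between replicates beyond counting noise, was 0.370 over all tested genes in edgeR.

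**Figure D4:**
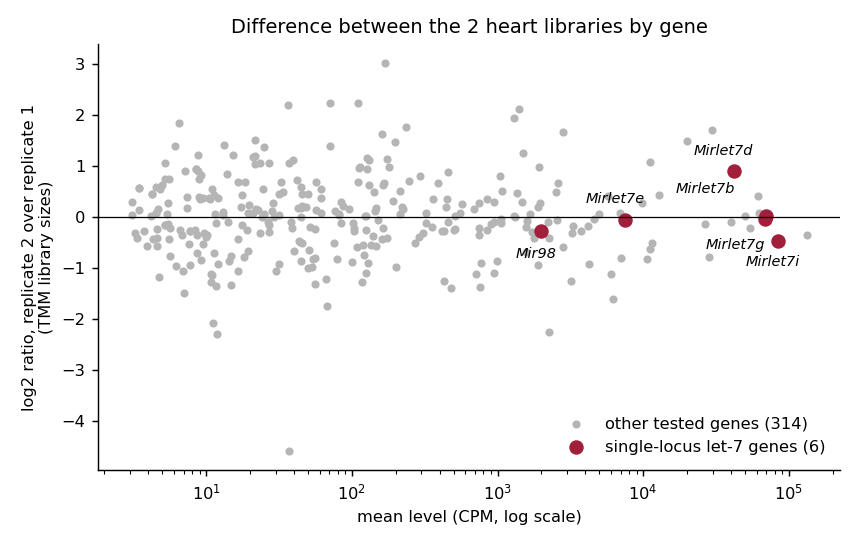
Log2 ratio of replicate 2 over replicate 1 against mean level in CPM (log axis) for 320 tested genes, with the 6 single-locus let-7 genes in red. Mirlet7d lies at 0.91 and Mirlet7i at -0.46, and the other 4 lie between -0.26 and 0.02.

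Mirlet7d and Mirlet7i moved against each other so that their sum hardly changed, a relation noticed after their values were seen. Together they held 12.6% of all microRNA gene counts in each library (12.57% and 12.56%). Their separate shares were 2.89% and 5.46% for Mirlet7d and 9.68% and 7.09% for Mirlet7i. The 2 genes lie on different chromosomes, and their mature sequences differ at 6 of 22 bases. The relation between their levels was not tested.

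Within the let-7 seed family, the single-locus genes held nearly all counted reads. RefSeq and the count files gave 14 genes with this seed: the 6, the 6 multi-copy genes Mirlet7a-1, Mirlet7a-2, Mirlet7c-1, Mirlet7c-2, Mirlet7f-1 and Mirlet7f-2, and Mir1961 and Mir7k. The 6 single-locus genes made up 96.1% ± 0.210 of the seed counts, and the multi-copy genes 3.86% ± 0.210 (SD, n = 2 each). Multi-mapped reads, 48.0% of all reads in replicate 1 and 46.4% in replicate 2, are listed apart from the genes. Where they hold let-7 reads, this division leaves those out, so it cannot rank let-7a, let-7c or let-7f against the others. Mir1961 had 0 counts and 1 count and Mir7k had 1 and 2. Mir202, whose mature 3′ arm differs from the let-7 seed, had 0 counts in both libraries.

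Among the seed counts Mirlet7i held 34.0% in replicate 1 and 25.0% in replicate 2, and Mirlet7d held 10.1% and 19.2%. Mirlet7b held 24.0% and 24.7%, and Mirlet7g 24.4% and 24.2%. Mirlet7e was at 2.69% and 2.62%, and Mir98 at 0.763% and 0.643%. The multi-copy gene with the most counted reads was Mirlet7f-2, at 7386 and 7175 CPM, close to Mirlet7e. By the binomial test above, 5 of the 6 multi-copy genes were lower in replicate 2 and 0 higher. Of all genes tested, 33.8% were lower and 30.6% higher. Calls were more frequent at depth, with 93.2% called in either direction among the 59 genes at 1000 CPM or more in both libraries. Only Mirlet7f-2 and Mirlet7c-2 of the multi-copy genes reached that level. The 6 multi-copy genes had a median log2 ratio of -0.26, against -0.04 for the 6 single-locus genes and 0.02 for all genes tested. Mirlet7a-2 was not called, with a log2 ratio of -0.11 (adjusted p = 0.0995 by the exact binomial test). Of the 5 called, Mirlet7f-2 had a log2 ratio of only -0.05, as small as that of Mirlet7e. Other scalings and filters are reported for the single-locus genes only, so the multi-copy calls carry that limit.

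**Figure D5:**
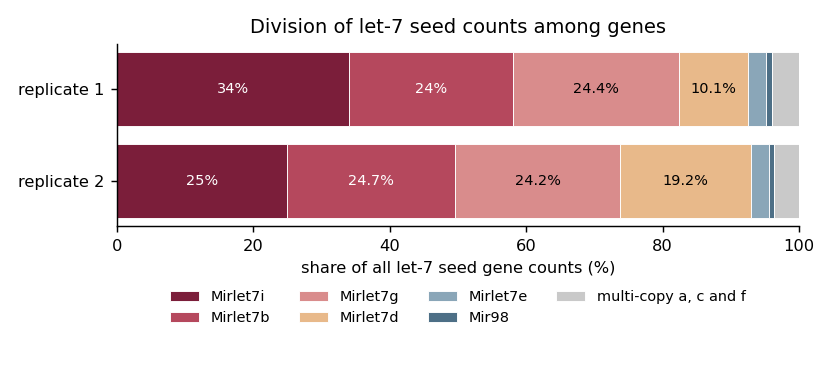
Share in percent of all let-7 seed gene counts held by each single-locus gene and by the multi-copy a, c and f genes together, as stacked bars for replicates 1 and 2. Mirlet7i holds 25.0% in replicate 2 and 34.0% in replicate 1, and Mirlet7d holds 19.2% and 10.1%, while no other share differs by more than 1 percentage point.

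The miR-99 and miR-125 genes, which lie beside let-7 genes at several loci, were called in both directions. Of Mir99a, Mir99b, Mir100, Mir125a, Mir125b-1 and Mir125b-2, 2 were higher in replicate 2, 3 were lower and 1 was not called, against 30.6% higher and 33.8% lower among all genes tested, so these counts were near the background. Mir99a was the most abundant, at 27786 and 25498 CPM. Mir125a and Mir99b, the partners of Mirlet7e, had log2 ratios of 1.09 for Mir125a and -0.79 for Mir99b, and the adjusted p was 0 at machine precision for both.

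Mirlet7e was counted only where strand was used. Gm25927, an annotated microRNA gene on the opposite strand, covers its whole hairpin, and in the column that ignores strand both genes had 0 counts in both libraries. The column for the opposite strand listed 27956 and 28419 counts for Gm25927, the same numbers as the sense counts of Mirlet7e. The other 5 genes had the same counts with and without strand to within 7 reads. Reads on the opposite strand were 0 in both libraries for 5 of the 6 genes, and 5 and 7 for Mirlet7b.

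The precursors were compared through their hairpins, because LIN28 is known to bind a GGAG element near the 3′ end of the let-7 loop. The hairpins of Mirlet7g, with the element in capitals, and of Mir98, without it, show the contrast.
Mirlet7g: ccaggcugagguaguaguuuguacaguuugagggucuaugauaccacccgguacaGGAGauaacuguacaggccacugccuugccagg
Mir98: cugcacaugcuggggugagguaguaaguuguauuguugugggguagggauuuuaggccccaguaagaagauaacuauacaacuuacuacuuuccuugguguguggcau
The Mirlet7g hairpin is at chr9:106178840-106178927 and that of Mir98 at chrX:151913214-151913321, both on the plus strand of GRCm38.p6. Between the mature arms, 4 of the 6 genes hold GGAG on the hairpin's strand: Mirlet7d, Mirlet7e, Mirlet7g and Mirlet7i. It ends 3 bases before the 3′ arm in Mirlet7g and 4 bases before it in the other 3. Mirlet7b and Mir98 hold none. The motif lay between the arms in 8.07% of 644 RefSeq mouse hairpins with both arms annotated, and anywhere in 44.5% of 1005 hairpins on their strand and 39.0% on the opposite strand. On the opposite strand it occurred once in Mirlet7b and once in Mirlet7e. The loop between the arms measured 23 bases in Mirlet7e and 32 to 36 bases in the other 5. Mean levels were 7558 to 83854 CPM in the 4 genes with the motif, and 2000.0 and 69280 CPM in the 2 without, so the ranges overlapped. A match describes letters in the hairpin and not binding.

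The genes outside the family closest in level over both libraries were found by the distance in log2(CPM + 0.5) over the 2 libraries. Mir23a, at 60908 and 64635 CPM, was the closest to each of Mirlet7b, Mirlet7g and Mirlet7i, at distances of 0.21, 0.21 and 0.68. Mir139 was closest to Mirlet7d at 0.71, Mir652 to Mirlet7e at 0.19 and Mir92-1 to Mir98 at 0.25. With 2 libraries such a distance describes level more than pattern.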

How the data were processed

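The authors deposited raw counts of reads in each microRNA gene. Each library's file has columns for reads counted without strand, on the gene's strand and on the opposite strand. Reads were placed on mm10 with GENCODE M21, per the deposited text beside each file, and the aligner is not given in the sources used here. The 4 rows that name no gene (64.8% and 63.6% of reads) entered neither library sizes nor tests. Levels in CPM were computed here from the sense column over all gene rows. Libraries held 10362589 and 10483233 reads. The members and lists were chosen with earlier results of these data known. Genes named are the 6 members, other genes with their seed, microRNA genes within 10 kb, the miR-99 and miR-125 genes, hosts, markers and the gene nearest in level to each member. Shares have exact Clopper-Pearson 95% intervals. TMM sizes, filterByExpr and dispersion came from edgeR 4.0.16 and size factors from DESeq2 1.42.0 in R 4.3.3. The test used scipy 1.17.1 in Python 3.11.15 and called genes at an adjusted p under 0.05. It was tested on data simulated with counting noise only. That check cannot show how the test behaves where replicates spread beyond counting noise, as they did here. Alternatives were other strand columns, denominators, scalings, filters, pseudocounts, distances and each replicate left out. Mature sequences, and the hairpins shown or searched for GGAG, are RefSeq's on GRCm38.p6, which matched 6 of 6 members by symbol. The hairpins searched for places of the mature sequences are those of GENCODE M21.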

Additional observations from a re-analysis of the deposited data

Results flagged for a closer look

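Reads on the strand opposite to Mirlet7b, which enter no level above, numbered 5 in replicate 1 and 7 in replicate 2, above the 3 counts used as the limit for a count of 0. Their sense counts were 249829 and 267236.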

How the results depend on the processing

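No paired analysis was possible because the libraries form 1 group. In the column without strand the median member level was 71454 CPM in place of 55160 CPM, over library totals of 2790062 and 2965399 in place of 3650782 and 3810675 counts. The summed share of the 6 genes, 27.4%, was 34.5% without strand, 24.1% over all uniquely mapped reads and 31.5% with Mir378a left out of the denominator. The log2 ratio of Mirlet7e to Mir99b was -14.10 and to Mir125a -14.72 without strand, where Mirlet7e has no count. With a replicate left out these ratios ran from -0.21 to 0.53 and from -1.03 to 0.11, so their sign rests on the library. Between libraries, 4 to 6 of the 6 genes were called over the alternatives. Without strand only 5 of the 6 were tested, as Mirlet7e had 0 counts there, and 4 were called. Mirlet7b was not called with DESeq2 size factors, and Mirlet7e and Mirlet7g were not called at 10 CPM or more in both libraries. Without the low-count filter, Mirlet7e turned to 0.026 and Mirlet7g to 0.048, and Mirlet7g turned to 0.0033 without strand. These settings change the TMM library sizes. Mirlet7d kept ratios of 0.89 to 0.98, Mirlet7i of -0.48 to -0.38 and Mir98 of -0.28 to -0.19 under the 5 scaling, filter and strand alternatives. Among all genes tested, 205 of 320 were called with DESeq2 size factors and 204 of 320 with plain library totals. The calls were 213 of 722 with all genes with a count, 176 of 238 at 10 CPM or more and 181 of 297 without strand. The share called thus changed with the filter.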
